A study of Homo sapiens with 6 samples.

Results

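The EGF receptor family and its ligands were examined as 10 genes picked by symbol from the deposited table of 61806 genes. They comprise the receptors EGFR, ERBB2 and ERBB3, the ligands AREG, EREG, HBEGF, TGFA, BTC and NRG1, and the receptor inhibitor ERRFI1. RNA was sequenced from BEAS-2B, a human cell line established from bronchial epithelium and immortalised. There were 3 libraries of cells treated with 15-KETE and 3 libraries of control cells, numbered 1 to 3 in each group. 15-KETE, also called 15-oxo-ETE, is an electrophilic ketone made from arachidonic acid. Its dose, its vehicle and the time of exposure are not given in the sources used here.

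The receptors of this family are tyrosine kinases that signal as dimers. EGFR binds the EGF-like ligands AREG, EREG, HBEGF, TGFA and BTC, which are made as membrane precursors and released by sheddases of the ADAM family, whereas neuregulins such as NRG1 bind ERBB3 and ERBB4. ERBB2 has no known ligand of its own and serves as a dimer partner, and the kinase domain of ERBB3 has little activity. In airway epithelium the pathway is known for its part in repair after injury, proliferation and mucin production, and ERRFI1 binds the receptor kinase domain and dampens it.

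Library totals lay between 16844781 and 22876808 counts. Whether the replicates came from separate cultures is not stated in the labels. P-values therefore cover only the spread between these libraries, which may be technical. Control replicate 2 stood apart from the other 5 libraries. Ribosomal protein transcripts took 10.15% of its counts, against 4.286% to 6.309% in the others. Across genes, its deviation in log2 CPM (counts scaled to library size) had a Spearman rho of -0.402 with exonic gene length, against -0.115 to 0.313 in the others, so short genes had more of its counts. The fold changes that turned on that library are given with and without it. Of the markers of airway epithelium, 9 of 9 had counts, with a summed level of 262 to 535 FPKM (fragments per kilobase of exonic length, scaled to the library total) in 15-KETE libraries and 295 to 748 in controls, led by KRT7 at a mean of 231 FPKM. EPCAM at 0.527, CDH1 at 0.692, KRT19 at 0.49 and TP63 at 0.0133 FPKM were low. The secretory markers SCGB1A1 and SCGB3A1 and the fibroblast collagen COL3A1 had 0 counts. Markers of ciliated and secretory cells were led by the tubulin TUBB4B at 237 FPKM. Of the others in that list, FOXJ1 was at 0.00667, MUC5AC at 0.0117 and MUC5B at 0.00333 FPKM. Mesenchymal markers were led by VIM at 162 FPKM, immune markers by CD14 at 5.27 FPKM and endothelial markers by PECAM1 at 0.09 FPKM. Of the other mesenchymal markers with counts, COL1A1 was at 3.19, PDGFRB at 0.78, DCN at 0.025 and PDGFRA at 0.0117 FPKM. The other immune markers were low, with CD68 at 0.177, CD3E at 0.0233 and PTPRC at 0.01 FPKM. VIM and CD14 thus made up nearly all of the sums of their lists. The summed immune list ran from 3.58 to 8.72 FPKM in 15-KETE libraries and from 3.81 to 8.17 in controls, and the endothelial list from 0.08 to 0.14 and from 0.12 to 0.17. Summed mesenchymal markers ran from 124 to 187 FPKM in 15-KETE libraries and from 129 to 210 in controls. Ciliated and secretory markers, nearly all of it TUBB4B, ran from 186 to 283 and from 213 to 297. The part of any of these markers in the values below was not tested.

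Per exonic length, amphiregulin was the most abundant transcript of the family and the neuregulin NRG1 the least. Averaged over the 6 libraries, the levels ran from AREG at 66.5 FPKM, ERRFI1 at 24.6, EREG at 18, EGFR at 11.2, ERBB2 at 8.31, HBEGF at 3.2, TGFA at 1.24, ERBB3 at 1.0 and BTC at 0.18 down to NRG1 at 0.0167 FPKM. AREG lay above 96.6% of the 15451 genes tested, EGFR above 73.4% and ERBB3 above 23.6%. Several neighbours in this order were close. EGFR exceeded ERBB2 in 4 of 6 libraries and TGFA exceeded ERBB3 in 5 of 6, while ERRFI1 exceeded EREG and EREG exceeded EGFR in 6 of 6, although the ranges of all 4 pairs overlapped. The ranges of AREG and ERRFI1, of ERBB2 and HBEGF, of HBEGF and TGFA, of ERBB3 and BTC, and of BTC and NRG1 did not overlap. This order depends on the exonic length by which FPKM divides. In CPM, BTC (2653 bases, 0.217 to 1.02) and NRG1 (21398 bases, 0.16 to 0.624) overlapped. EGFR (15941 bases) averaged 191 CPM with 15-KETE and 162 in controls, above AREG (1642 bases) at 95.3 and 128.

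**Figure D1:**
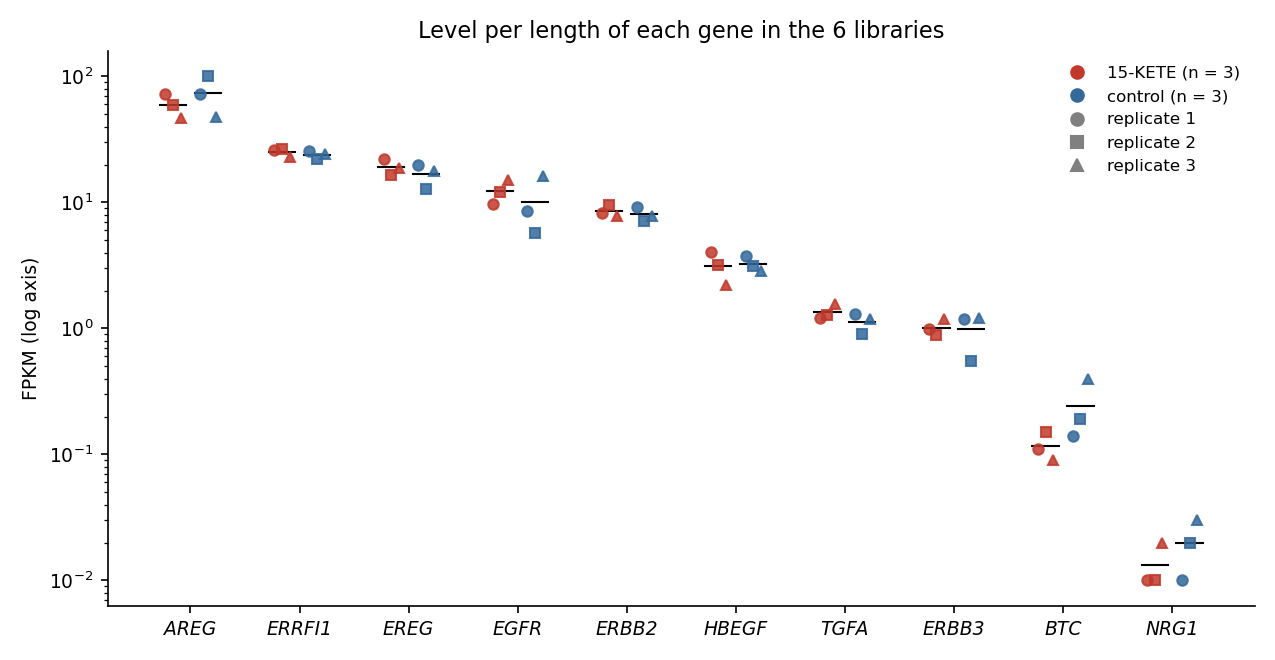
FPKM (log axis) of the 10 genes in each library, ordered by their mean over the 6 libraries, with 15-KETE libraries in red to the left of control libraries in blue, a marker shape for each replicate number and a black bar at each group mean (n = 3 each). AREG lies highest, between 46.43 and 100.94 FPKM, and the points of both groups overlap for every gene.

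The EGF-like ligand AREG is known for its induction in injured and inflamed airway epithelium. It had 72.39, 59.79 and 46.43 FPKM in 15-KETE replicates 1, 2 and 3, and 72.22, 100.94 and 47.36 FPKM in control replicates 1, 2 and 3. The values of replicates 1 and 3 were close between the groups, and control replicate 2 held the highest value of all. AREG (ENSG00000109321) lies on chromosome 4 at 74445136 to 74455005, and its exonic length of 1642 bases is the shortest of the family. EREG (ENSG00000124882), which encodes epiregulin, lies 56386 bases upstream at 74365145 to 74388749 on the same strand, with 5713 exonic bases and 1 other gene between them. EREG had 22.22, 16.57 and 18.8 FPKM in 15-KETE replicates 1, 2 and 3, and 19.78, 12.71 and 17.91 FPKM in the controls of the same numbers. Here control replicate 2 was the lowest library, so these neighbouring genes differed most in the library that stood apart. The ratio of AREG to EREG in FPKM was 3.26, 3.61 and 2.47 in the 15-KETE libraries and 3.65, 7.94 and 2.64 in the controls.

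The promoters of these neighbours are shown because the genes encode related ligands at 1 locus and their levels moved apart in control replicate 2. Their exonic lengths also differ (1642 bases for AREG and 5713 for EREG), and the cause of that divergence was not tested. RefSeq (GRCh38.p14) places the AREG window at chr4:74444886-74445185 and the EREG window at chr4:74364895-74365194, both on the plus strand, from 250 bases before the gene start to 50 after it. Capitals mark 2 motifs searched on both strands, the cyclic AMP response element TGACGTCA and the TATA box TATAAA, which do not overlap here.
AREG: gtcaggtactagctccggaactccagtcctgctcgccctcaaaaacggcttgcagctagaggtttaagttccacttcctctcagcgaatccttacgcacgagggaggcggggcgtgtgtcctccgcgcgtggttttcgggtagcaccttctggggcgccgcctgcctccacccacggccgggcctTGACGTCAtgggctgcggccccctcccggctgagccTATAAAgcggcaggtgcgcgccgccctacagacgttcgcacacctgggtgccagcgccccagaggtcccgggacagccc
EREG: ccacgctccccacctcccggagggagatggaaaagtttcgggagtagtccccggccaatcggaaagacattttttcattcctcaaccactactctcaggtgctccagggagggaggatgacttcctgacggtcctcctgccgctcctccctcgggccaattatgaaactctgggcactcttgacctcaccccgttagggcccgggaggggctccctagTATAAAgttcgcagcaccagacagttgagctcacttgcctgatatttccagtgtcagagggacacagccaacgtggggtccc
In AREG the response element began 65 bases before the gene start and the TATA box 29 bases before it, and in EREG the TATA box began 32 bases before the start. The response element occurred in 1.85% of 35116 promoter windows of this length, and among the 8 members with a window in that of AREG alone. The letters TATAAA, on either strand and at any position, occurred in 11.5% of all windows, and among the members in those of AREG, EREG and EGFR. Where they lie in the EGFR window was not recorded, so that match is not called a TATA box. GC content was 66.3% in the AREG window and 57.7% in that of EREG. These matches describe the letters of the windows and not binding of a factor.

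HBEGF (ENSG00000113070, chromosome 5, 140332843 to 140346603), the heparin-binding ligand of EGFR and ERBB4, had 4.04, 3.2 and 2.21 FPKM in 15-KETE replicates 1, 2 and 3 and 3.76, 3.15 and 2.84 FPKM in the controls. Replicate 3 was the lowest library in each group. TGFA (ENSG00000163235, chromosome 2, 70447284 to 70554193), the long-known autocrine ligand of EGFR, had 1.2, 1.28 and 1.56 FPKM in 15-KETE libraries and 1.3, 0.9 and 1.18 FPKM in controls. Both 15-KETE replicates 2 and 3 exceeded their controls, while replicate 1 did not. BTC (ENSG00000174808, chromosome 4, 74744759 to 74794523), betacellulin, had 5, 9 and 4 counts in 15-KETE libraries and 7, 11 and 18 counts in controls. NRG1 (ENSG00000157168, chromosome 8, 31639222 to 32855666) had 5, 5 and 8 counts in 15-KETE libraries and 3, 11 and 11 counts in controls. These last 2 genes fell below the filter on low counts and were not tested, and their groups overlapped.

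AREG and EREG together made up nearly all ligand transcript per length. Of the summed FPKM of the 6 ligands, AREG took 71.1% ± 3.5 with 15-KETE and 75.9% ± 8.95 in controls (SD, n = 3 each). EREG took 23.3% ± 3.5 in 15-KETE libraries and 18.9% ± 7.55 in controls. AREG's share was highest in control replicate 2, at 85.6%, and lay between 67.2% and 74.3% elsewhere. The ligands summed to 83.4 ± 15.6 FPKM with 15-KETE and to 94.9 ± 24.2 FPKM in controls, a difference smaller than either SD. Without control replicate 2, the control means were 71.1% for AREG, 23.0% for EREG and 83.5 FPKM for the sum.

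**Figure D2:**
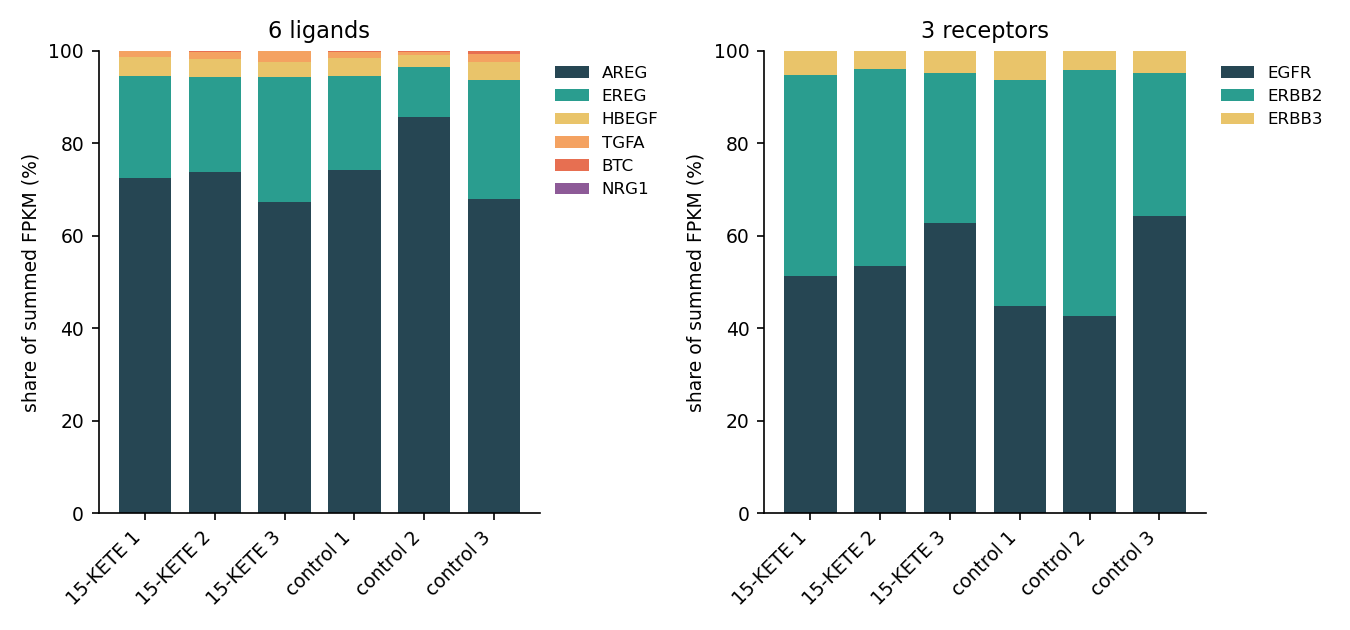
Share of each gene in the summed FPKM of the 6 ligands (left) and of the 3 receptors (right), with 1 bar per library and the 15-KETE libraries to the left of the controls. AREG takes 67.2% to 85.6% of the ligand sum, and EGFR 42.6% to 64.2% of the receptor sum.

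Among the receptors, the ratio of EGFR to ERBB2 in FPKM ran from 0.8 to 2.07 over the 6 libraries, and ERBB3 was low. That ratio was highest in replicate 3 of each group, at 1.94 with 15-KETE and 2.07 in the control. EGFR (ENSG00000146648, chromosome 7, 55019017 to 55211628, 15941 exonic bases) had 9.73, 12.04 and 15.21 FPKM in 15-KETE replicates 1, 2 and 3 and 8.49, 5.71 and 16.21 FPKM in control replicates 1, 2 and 3. Replicate 3 was the highest library of each group, and control replicate 2 was the lowest of all. ERBB2 (ENSG00000141736, chromosome 17, 39687914 to 39730426) had 8.21, 9.61 and 7.83 FPKM in 15-KETE libraries and 9.26, 7.14 and 7.83 FPKM in controls, and was among the steadiest members. The table places MIEN1 and PGAP3 on the opposite strand across parts of the ERBB2 locus, with 454 to 1287 and 149 to 191 counts a library. Without a stated strand setting, reads of such overlapping genes cannot be told apart. The antisense gene EGFR-AS1 had 0 to 9 counts a library. ERBB3 (ENSG00000065361, chromosome 12, 56076799 to 56103505) had 0.99, 0.88 and 1.18 FPKM in 15-KETE libraries and 1.19, 0.55 and 1.21 FPKM in controls, again with control replicate 2 lowest.

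EGFR took 55.9% ± 6.08 of the summed receptor FPKM in 15-KETE libraries and 50.5% ± 11.9 in controls, and ERBB2 took 39.5% ± 6.18 and 44.4% ± 11.8 (SD, n = 3 each). The control means without control replicate 2 were 54.5% for EGFR and 40.0% for ERBB2. The ratio of AREG to EGFR in FPKM was 7.44, 4.97 and 3.05 in 15-KETE replicates 1, 2 and 3 and 8.51, 17.7 and 2.92 in the controls. In both groups it was lowest in replicate 3, where AREG was low and EGFR high.

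ERRFI1 (ENSG00000116285, chromosome 1, 8004404 to 8026309), the feedback inhibitor also called MIG6, had 26.12, 26.75 and 23.12 FPKM in 15-KETE libraries and 25.47, 22.09 and 24.32 FPKM in controls. Its highest value was 1.21 times its lowest, the narrowest range among the 10 genes.

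Treated and control cells were compared to find transcripts that differ after exposure to 15-KETE. No member of the family passed the test. At an adjusted p below 0.05 in edgeR's quasi-likelihood fit, 0 of the 8 tested members were called, each with an adjusted p of 0.9996, and 0% of the 15451 genes. Without adjustment, 0 members and 25 of all genes (0.162%) had a p below 0.05, against 0 members and 727 genes (4.71%) once replicate number was a block. Calls were likewise 0 with DESeq2 (31 genes below 0.05 before adjustment), limma-voom (32) and limma on FPKM (73). The CPM ranges of the groups did not overlap for 0 of the 8 tested members, beside 2.3% of all tested genes (1.22% with 15-KETE higher and 1.07% with 15-KETE lower). The median log2 fold change of the members was 0.01, beside -0.002 over all tested genes. Of the 8 members, 6 lay above 0, beside 49.8% of all tested genes, and with RLE size factors or DESeq2 3 did, beside 47.6%.

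AREG averaged 95.3 ± 21.0 CPM in 15-KETE libraries and 128 ± 61.4 CPM in controls (SD, n = 3 each), the largest fitted difference among the 8 tested members in this fit (EGFR was larger in size with limma on FPKM, at 0.35 against -0.26). Its log2 fold change was -0.43 ± 0.366 (SE), with a 95% interval of -1.25 to 0.4. EGFR averaged 191 ± 41.1 CPM in 15-KETE libraries and 162 ± 74.7 CPM in controls, a log2 fold change of 0.24 ± 0.349 with an interval of -0.55 to 1.03. TGFA averaged 6.44 ± 0.842 and 5.64 ± 0.508 CPM (0.19 ± 0.279, interval -0.44 to 0.82). EREG averaged 107 ± 13.6 and 97.7 ± 12.2 CPM (0.13 ± 0.239, interval -0.41 to 0.66), and HBEGF 9.19 ± 2.69 and 10 ± 1.67 CPM (-0.13 ± 0.313, interval -0.83 to 0.58), with 15-KETE first in each case. The log2 fold changes of ERBB2, ERBB3 and ERRFI1 were 0.01, 0.004 and 0.003, and their intervals ran from -0.53 to 0.55, from -0.68 to 0.69 and from -0.51 to 0.52. For 6 of the 8 members the interval lay within 2-fold in either direction, beside 7832 of the 15451 tested genes, and AREG and EGFR were the exceptions. With the replicate number as a block, the interval lay within 2-fold for 8 of 8 members, beside 12126 of the 15451 tested genes. In that fit AREG was at -0.34 (-0.78 to 0.1) and EGFR at 0.31 (-0.11 to 0.74), and the smallest adjusted p of a member was 0.6954 by edgeR.

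**Figure D3:**
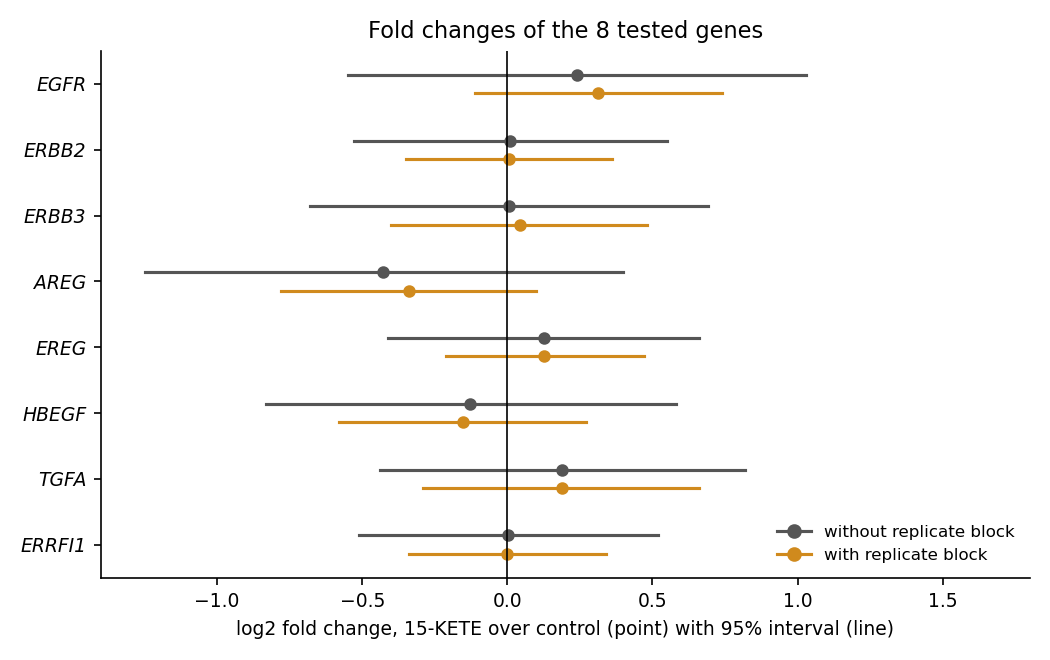
Log2 fold change of 15-KETE over control for the 8 tested genes (points) with 95% intervals (lines), from edgeR without (grey) and with (orange) the replicate number as a block. Each interval contains 0, and those of AREG and EGFR without the block, -1.25 to 0.4 and -0.55 to 1.03, are the widest.

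The members differed more by replicate number than by treatment. Split by sums of squares of log2 CPM over the 6 libraries, the replicate number held a median of 69.0% of a member's variation and treatment 9.6%, beside 73.7% and 8.19% over all tested genes. Replicate number has more degrees of freedom than treatment, which by itself raises its share. It was the largest part for 7 of the 8 members, beside 12778 of the 15451 tested genes. Among those 7 members its share ran from 65.3% for ERBB2 and AREG to 91.7% for ERRFI1. TGFA was the exception, with 15.6% for replicate number, 33.4% for treatment and 51% left over. In EREG, replicate number held 82.6% and treatment 15.5%, leaving 1.89%.

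Within the pairs of libraries that share a number, AREG and EGFR differed between treatments in pair 2 and little in the others. The log2 CPM of AREG in 15-KETE minus control was -0.02, -0.97 and -0.03 in pairs 1, 2 and 3, and that of EGFR 0.18, 0.86 and -0.1. For ERBB3 the differences were -0.28, 0.46 and -0.04. EREG was higher in 15-KETE in 3 of 3 pairs, by 0.15, 0.16 and 0.06, and AREG was lower in 3 of 3. The share of all tested genes with 1 sign in 3 of 3 pairs was not counted. The log2 fold change of EREG with the block was 0.13 ± 0.157 (SE, edgeR adjusted p = 0.7889). Without control replicate 2, in the fit without the block, it was 0.04. TGFA differed by -0.13, 0.29 and 0.39, HBEGF by 0.08, -0.19 and -0.36, ERBB2 by -0.19, 0.21 and -0.01, and ERRFI1 by 0.02, 0.06 and -0.08.

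**Figure D4:**
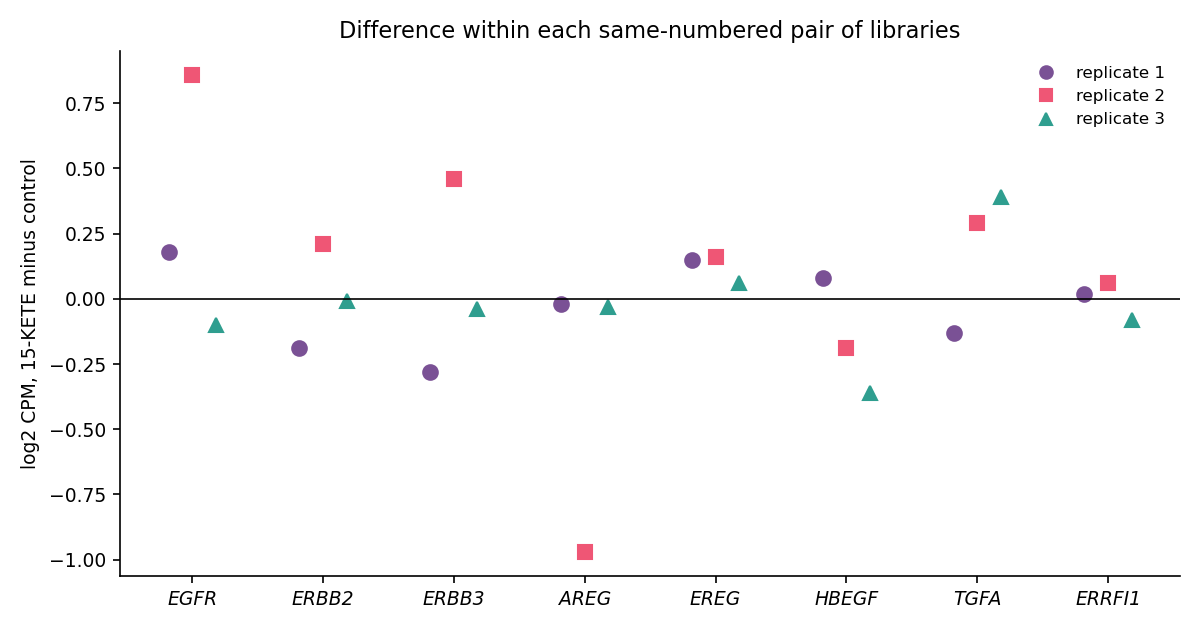
Difference in log2 CPM, 15-KETE minus control, within each pair of libraries with the same replicate number for the 8 tested genes. The AREG and EGFR points of pair 2, at -0.97 and 0.86, lie farthest from 0. EREG is above 0 and AREG below 0 in 3 of 3 pairs.

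The AREG and EGFR differences rested on control replicate 2. Against the mean of the other 5 libraries, its log2 CPM was 1.06 higher for AREG (1642 exonic bases) and 0.28 higher for HBEGF (2990). It differed by 0.09 for ERRFI1 (4179), -0.25 for TGFA (4917) and -0.3 for EREG (5713). The differences were 0.02 for ERBB2 (10321), -0.69 for ERBB3 (11711) and -0.79 for EGFR (15941). Their cause in control replicate 2 was not tested. Without that library the log2 fold changes of AREG and EGFR were 0.01 and 0.02. With a smooth trend on exonic length taken from each library they were -0.25 and 0.11. Without control replicate 3, which had low AREG and high EGFR, they were -0.68 and 0.71 (edgeR adjusted p = 0.6685 for each, unadjusted 0.0599 and 0.0432).

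The genes of most similar pattern were sought by the root mean square difference of mean-centred log2 CPM over the 6 libraries, among tested genes of similar abundance. EGFR was nearest to UGGT1 (0.0857) and YLPM1 (0.114), against a median of 0.533 over 2360 genes. AREG was nearest to NPC2 (0.0592) and ZFAS1 (0.0599), with a median of 0.501 over 3695 genes. For EREG the nearest were EXO1 (0.0386) and TUBGCP3 (0.0444), for HBEGF VEGFC (0.111) and GPR137B (0.112), and for TGFA TMCO4 (0.0574) and SLC47A1 (0.0576). ERBB2 was nearest to APOBEC3C (0.0353) and CYFIP1 (0.0354), ERBB3 to PLD2 (0.0783) and ARHGEF40 (0.0795), and ERRFI1 to ASB1 (0.0349) and ZDHHC3 (0.0428). Between members, ERBB2 and ERRFI1 were the closest pair (0.0803) and EGFR and AREG the farthest (0.901).

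Other genes of the pathway were taken as 8 lists with 78 genes, of which 73 were tested. None passed edgeR's test without or with the replicate block (smallest adjusted p with the block 0.695). In the fit without the block, 0 of 73 had an unadjusted p below 0.05, beside 0.162% of all tested genes. Unadjusted p-values of the lists were not counted in the blocked fit, where 4.71% of all tested genes lay below 0.05. The groups of 0 of 73 did not overlap (2.3% of all tested genes). Among the remaining family members, EGF and NRG3 had 0 counts, which over 115142485 counts in all allows up to 0.0261 CPM for counting error alone. ERBB4, the other neuregulin receptor, had 1 count and NRG4 had 32 counts over the 6 libraries. EPGN, epigen, had 0.4 ± 0.272 FPKM in 15-KETE libraries and 0.303 ± 0.17 in controls (log2 fold change 0.29 ± 0.618, SE), and NRG2 had 0.557 ± 0.195 and 0.43 ± 0.165 FPKM (0.27 ± 0.467).

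The sheddases and iRhoms, which cut ligand precursors or carry the sheddase to the surface, had log2 fold changes with a median of 0.06, and 6 of 9 lay above 0. ADAM15 was the most abundant of them at 20.8 ± 4.43 FPKM with 15-KETE and 21.8 ± 4.02 in controls (SD, 3 libraries each), and ADAM19 had the smallest p (log2 fold change 0.29 ± 0.335, SE). Inhibitors, phosphatases and ubiquitin ligases of the receptors had a median of 0.14 with 11 of 13 above 0, led in level by the phosphatase PTPN1 at 45.5 ± 4.48 and 39.8 ± 10.7 FPKM. The smallest p there was that of LRIG1, a transmembrane inhibitor (0.38 ± 0.344). Receptor adaptors had a median of 0.2 with 7 of 8 above 0, with SHC1 at 99.7 ± 23.6 and 84.2 ± 10.9 FPKM and GAB1 of smallest p (0.36 ± 0.408). In each of these pairs of values 15-KETE stands first.

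In the RAS to ERK cascade the median log2 fold change was 0.0027 (-0.0127 with RLE size factors and with DESeq2), and 5 of 10 genes lay above 0. HRAS, of smallest p there, averaged 31.4 ± 10.3 CPM in 15-KETE libraries and 51.3 ± 39.5 CPM in controls (-0.71 ± 0.497, SE), with 1793 counts in control replicate 2 against 456 to 979 in the other libraries. NRAS was the most abundant of them, at 38.1 ± 6.53 FPKM in 15-KETE libraries and 37.3 ± 7.87 in controls. PI3K and AKT genes had a median of 0.13 with 7 of 9 above 0, led in level by AKT1 (log2 fold change 0.01 ± 0.251). Endocytosis and recycling genes had 0.08 with 5 of 9 above 0, led in level by RAB7A (-0.04 ± 0.265) and in p by HGS (0.25 ± 0.274).

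ERK-responsive transcripts, which rise when the cascade is active, had a median of -0.05 with 4 of 13 above 0, and of 0.05 with library totals as the only scaling and 0.03 with limma on FPKM. EGR1, the most abundant of them, had 70.7 ± 38.5 FPKM in 15-KETE libraries and 64.0 ± 43.2 in controls, and the phosphatase DUSP5, of smallest p, had 24.2 ± 5.9 and 28.4 ± 8.84 FPKM (log2 fold change -0.34 ± 0.355, SE). Each tested gene named from the lists had an edgeR adjusted p of 0.9996. Without control replicate 2, the log2 fold changes of HRAS (0.14), ADAM15 (0.095), RAB7A (0.05) and EGR1 (-0.21) had the opposite sign, and those of LRIG1, GAB1, HGS and DUSP5 were 0.08, 0.05, 0.04 and -0.03, while NRG2 was at 0.71. Without control replicate 2 the medians changed sign for sheddases (-0.12), inhibitors (-0.04), adaptors (-0.02), endocytosis genes (-0.08) and ERK-responsive transcripts (0.08), and that of PI3K and AKT genes was 0.02. Other omitted libraries also turned list medians. Without 15-KETE replicate 1 the medians were -0.09 for endocytosis genes, -0.04 for the RAS to ERK cascade and 0.06 for ERK-responsive transcripts. Without 15-KETE replicate 3 that of sheddases was -0.09, without control replicate 1 that of the other EGF family genes was -0.03, and without control replicate 3 that of the RAS to ERK cascade was -0.02. The ERK-responsive median was -0.24 without 15-KETE replicate 2, and the sheddase median 0.36 without control replicate 3. With the length trend removed they did so for sheddases (-0.0949) and PI3K and AKT genes (-0.0451).

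**Figure D5:**
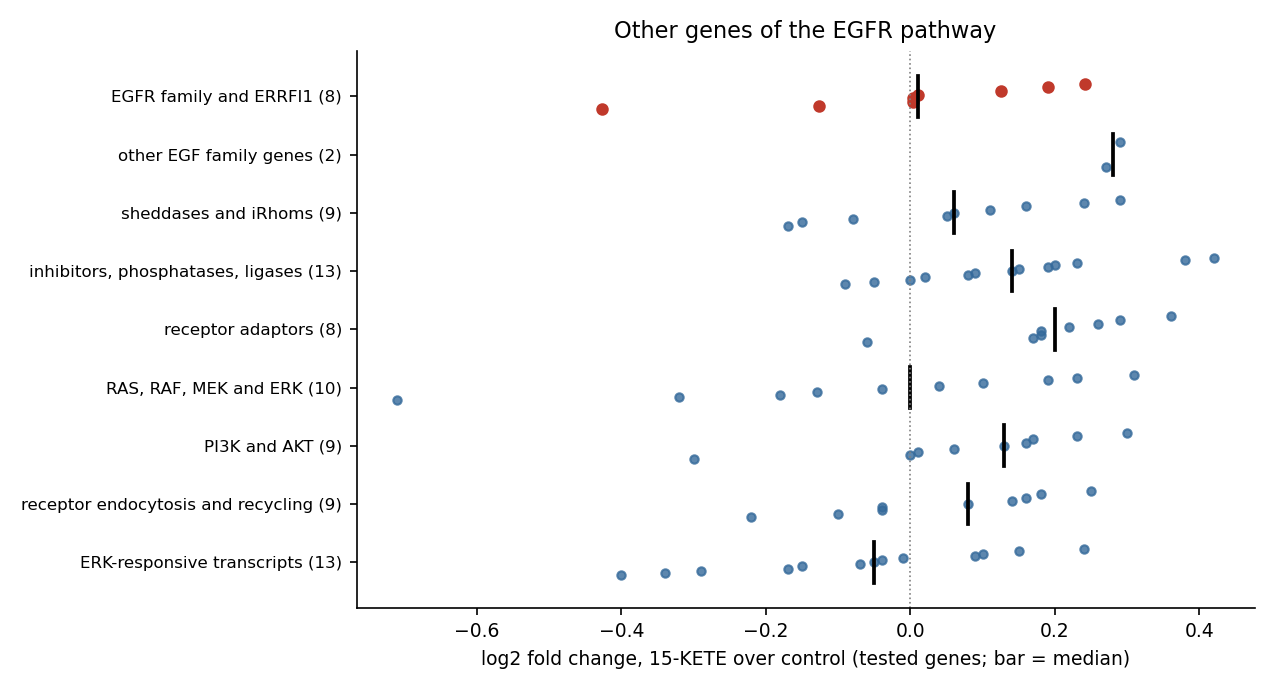
Log2 fold change of 15-KETE over control for each tested gene of the family (red) and of the 8 lists of other pathway genes (blue), with the number tested in brackets and a black bar at each median. List medians run from -0.05 for ERK-responsive transcripts to 0.28 for the other EGF family genes, and HRAS lies lowest at -0.71 (0.14 without control replicate 2).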

How the data were processed

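Libraries came from polyadenylated RNA of BEAS-2B cells (SMARTer kit, per the labels' protocols). Among the tools listed without roles in the submitters' processing notes are HISAT2 2.2.1 and HTSeq 0.6.1. The genome build and strand setting were not given in the sources used here. GENCODE 29 (GRCh38) holds 58254 of the genes, 89.6% with the same start or end. Printed coordinates are those of the table. The authors deposited raw counts and FPKM per gene and library, per the file headers, and exonic lengths. All FPKM (100%) lay within 0.01 of values recomputed from counts, lengths and totals.

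Counts were tested with edgeR 4.0.16 (filterByExpr by group, TMM scaling, robust quasi-likelihood test, Benjamini-Hochberg adjustment over 15451 genes, threshold 0.05), an approach tested on simulated data. The simulated libraries held no length trend and no library that stood apart, so they do not cover a library such as control replicate 2. The members and lists were chosen with earlier results of these data known. All members are named, as are the gene of smallest p and of highest FPKM of each pathway list, the most abundant marker of each marker list with markers at 0 counts, and the 2 genes of most similar pattern to each tested member (within 1 log2 CPM in abundance). EPCAM, CDH1, KRT19, TP63, FOXJ1, MUC5AC, MUC5B, COL1A1, PDGFRB, DCN, PDGFRA, CD68, CD3E and PTPRC were named after their values were seen. One gene that this rule names is not reported here. Alternatives used DESeq2 1.42.0, limma 3.58.1, mgcv 1.9.3 for the length trend, other scalings and filters, the replicate block and omitted libraries. Shares, sums and single pathway genes without control replicate 2 were added after seeing the data.

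Deviations from the group means correlated at 0.553, 0.631 and 0.707 between same-numbered libraries, against -0.551 to -0.09 between different numbers. A gene's deviations cancel within each group, so positive values for the same numbers push the others towards negative values, which are no separate evidence. Each same-numbered value was over 0.1. The numbers, taken from the titles, were therefore treated as pairing the libraries in the blocked fit and in the differences within pairs. The main fit left the pairing out, so the spread between replicate numbers entered its error. Unadjusted p lay below 0.05 for 0.162% of tested genes in the main edgeR fit and for 4.71% with the block. No label says what the replicate numbers stand for. No libraries were identical or agreed within sampling noise (chi-square per gene at least 2.39). The most alike were 15-KETE replicate 3 and control replicate 3, at 2.39, followed by 15-KETE replicate 1 and control replicate 1 at 10.29.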

Additional observations from a re-analysis of the deposited data

How the results depend on the processing

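Under 19 alternatives, no member passed the threshold. Over those settings the log2 fold changes ran from 0.02 to 0.71 for EGFR, 0.03 to 0.23 for EREG and 0.09 to 0.36 for TGFA, which stayed above 0. The replicate block changed no call, with 0 genes called, and ERRFI1 at -0.0005. Leaving out 1 library at a time gave -0.68 to 0.0098 for AREG, -0.32 to 0.0886 for HBEGF, -0.12 to 0.0892 for ERBB2, -0.22 to 0.15 for ERBB3 and -0.0702 to 0.0834 for ERRFI1. AREG changed sign without control replicate 2 and HBEGF without 15-KETE replicate 3. ERBB2, ERBB3 and ERRFI1, all near 0, also turned below 0 with RLE size factors (-0.0066, -0.0092 and -0.0134), with DESeq2 (-0.0065, -0.0093 and -0.0133), and in the blocked fit without both replicate 2 libraries (-0.1077, -0.1663 and -0.0373), as did ERRFI1 with limma-voom (-0.0004). With the length trend removed, ERBB2 and ERBB3 were at -0.1599 and -0.1356, and at -0.1516 and -0.1289 with the replicate block added. EGFR had an unadjusted edgeR p of 0.0432 without control replicate 3, where 5.62% of all genes lay below 0.05, and of 0.0492 in the blocked fit without the replicate 3 pair (log2 fold change 0.54), where 12.2% did. The cause was not tested. The blocked fit called 1 gene without the replicate 1 pair and 12 without the replicate 3 pair, none of them a member or a pathway gene. The difference in ribosomal protein share, -1.537 points (5.38% ± 0.937 with 15-KETE and 6.91% ± 2.98 in controls, SD over 3 libraries each, exact two-sided permutation test, p = 0.6, smallest possible 0.1), was 0.0802 without control replicate 2 and between -2.852 and -1.044 without each of the other 5 libraries in turn. On TMM-scaled FPKM, and without 15-KETE replicate 3, control replicate 1 or control replicate 3, 7 members, not 8, averaged at least 1 FPKM. Depth limits BTC and NRG1, whose log2 fold changes without the filter were -1.13 ± 0.734 and -0.57 ± 0.778 (SE, edgeR adjusted p = 0.9957 for both).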
